A study of Oryza sativa with 12 samples.

Results

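The loci described here are those whose transcripts were higher in rice roots given PEP1 than in roots given ethanol, in the wild type and in an RNAi line against OsPEP1. A locus belonged to the set if, in each genotype, its mean under PEP1 was at least 2 CPM (a count scaled to the total count of its library), its PEP1 mean was at least 4 times its ethanol mean after 0.2 CPM was added to both, and every PEP1 library lay above every ethanol library. Of 55801 rows with a LOC_Os locus ID, 172 met these conditions, and 5 of them were among 7 loci that the definition leaves aside, so the set holds 167 loci. The loci were thus chosen by the PEP1 and ethanol values of all 12 libraries, and their difference between PEP1 and ethanol is given below as a description, with no reading of its test.

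RNA sequencing of roots from 7-day-old greenhouse seedlings of the rice cultivar XS134 gave 4 groups of 3 libraries: the RNAi line under 1 µM PEP1, the RNAi line under ethanol, the wild type under 1 µM PEP1 and the wild type under ethanol. The RNAi group is a single transformed line, line 1, so a property of that line and a property of the RNAi cannot be told apart. The labels give neither the solvent of PEP1 nor the length of the treatment, nor do they say whether libraries of 1 group are from different cultures. The p-values below therefore measure only how far these samples spread, and that spread may be technical. The labels do not give the locus of OsPEP1, and its level was not analysed here.

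Whether PEP1 acts as an elicitor in these roots was not tested. Roots that sense an elicitor are known to switch on defence genes. Among these are WRKY transcription factors, enzymes that make diterpenoid phytoalexins (antimicrobial terpenes for which rice is well known), chitinases, which cut fungal cell walls, and lipoxygenases, which open the route to the hormone jasmonate. WRKY62 is such a transcription factor. CPS4 closes the first ring system of the momilactone type of phytoalexin, and KO4 and KOL5 are cytochrome P450 enzymes of the kaurene oxidase family, which oxidise diterpenes. The deposited table gives locus IDs without gene names, so these symbols rest on hand-written pairs of locus and symbol. The remaining loci are given by ID, with no role.

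Total counts ranged from 15368736 to 21317008 per library, and 3 counts corresponded to 0.141 CPM in the deepest library and to 0.195 CPM in the shallowest. All pairs of libraries within a group differed by far more than counting noise, with a chi-square per degree of freedom of 14.98 or more. On the first principal component of all genes (44.1% of the variance), wild type PEP1 replicate 2 (2.05) and wild type ethanol replicate 1 (-8.78) lay next to each other and in reverse order, between the other wild type PEP1 libraries (-51.6 and -69.5) and the other wild type ethanol libraries (75.3 and 63.4). Their labels were kept, and whether they were exchanged or mixed was not tested. Without both, the conditions of the set were met by 576 loci, of which 159 belong to the 167. The root markers Lsi1 and Lsi2, both silicon transporters, summed to between 1931 and 2783 CPM in RNAi PEP1 libraries, 1113 and 1725 CPM in RNAi ethanol libraries, 1581 and 4087 CPM in wild type PEP1 libraries and 642 and 868 CPM in wild type ethanol libraries. The 3 shoot markers, which belong to photosynthesis, summed to 691 CPM in RNAi PEP1 replicate 2, to 275 CPM in wild type ethanol replicate 2 and to between 10.4 and 184 CPM in the other libraries. In whole roots, fewer cells of a type and less RNA per cell cannot be told apart.

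The 167 loci together took 7768 ± 1745 CPM in RNAi roots under PEP1 and 688 ± 197 CPM under ethanol (mean ± SD, n = 3 each). In the wild type they took 7214 ± 2230 CPM under PEP1 and 891 ± 519 CPM under ethanol (n = 3 each). The ratio of PEP1 to ethanol, always with 0.2 CPM added to both means, had a median of 8.53 in the RNAi line, with a range from 4.003 to 249. In the wild type the median ratio was 6.28, with a range from 4.02 to 72.4. The ratio was at least 8 in both genotypes at 43 loci, at least 10 at 30 loci and at least 20 at 6 loci. For comparison, over the 22387 LOC_Os rows with a mean of at least 1 CPM the median ratio was 0.980 in the RNAi line and 1.02 in the wild type. The set lies in the upper right corner of the plot of both ratios.

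**Figure D1:**
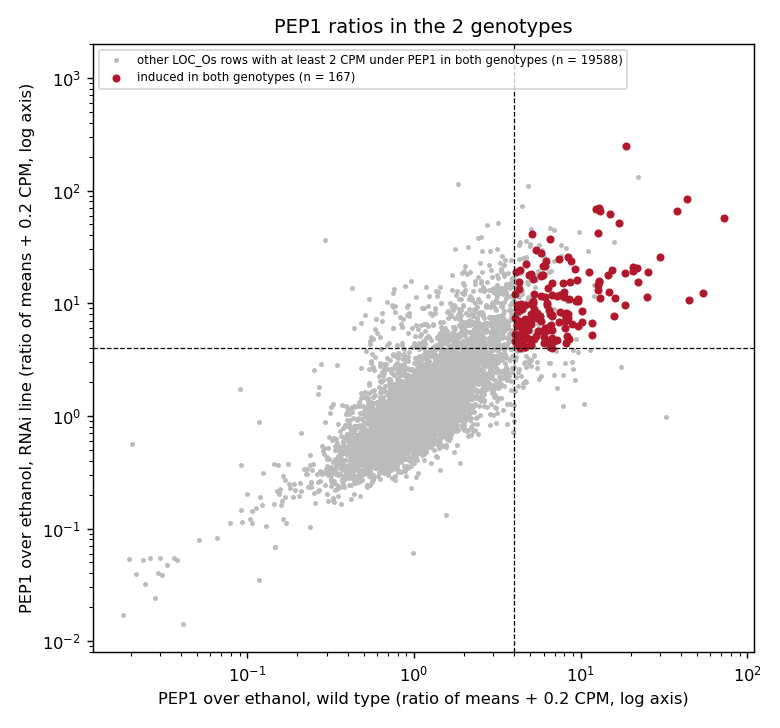
Ratio of the PEP1 mean to the ethanol mean (0.2 CPM added to both) in the RNAi line (vertical, log axis) against the wild type (horizontal, log axis), 1 point per locus. The dashed lines mark the ratio of 4 that was required in both genotypes, and the 167 red loci lie above and to the right of them. Grey points in that corner are loci whose PEP1 and ethanol libraries overlapped in a genotype, or that were left aside by the definition.

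The ratio was larger in the RNAi line at 113 loci and larger in the wild type at 54, and the 2 ratios lay within 1.5 times of each other at 87. This balance moved with 1 library. Without wild type ethanol replicate 1 the median wild type ratio was 8.85, and the RNAi ratio was larger at 79 loci. A quasi-likelihood fit in edgeR, with p-values adjusted by Benjamini-Hochberg over its 25602 features, covered all 167 loci. Of them 160 were called higher under PEP1 in the RNAi line, where 8.68% of all features were called higher and 6.68% lower. In the wild type 116 were called higher, where 2.54% of all features were called higher and 2.66% lower. These are the contrasts that chose the loci, and nothing is read from these counts.

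The set is unevenly filled, and its 12 loci with the most counts under PEP1 held 53.5% of its summed mean CPM there. LOC_Os02g37190 took the most counts. Its level was 1285, 1221 and 511 CPM in the RNAi PEP1 libraries, against 15.5, 96.3 and 15.7 CPM in the RNAi ethanol libraries. Wild type libraries had 954, 407 and 1289 CPM under PEP1, against 195, 30.6 and 77.0 CPM under ethanol. The PEP1 libraries of each genotype were all above its ethanol libraries, and wild type PEP1 replicate 2 and wild type ethanol replicate 1 came closest to each other. LOC_Os08g02700 averaged 462 ± 134 CPM under PEP1 and 6.51 ± 2.34 CPM under ethanol in the RNAi line. Wild type libraries averaged 584 ± 193 CPM under PEP1 and 46.9 ± 57.0 CPM under ethanol, where replicate 1 alone had 113 CPM and the other replicates 14.6 and 13.5 CPM. LOC_Os03g18130 also had its highest wild type ethanol level in replicate 1, with 529, 225 and 548 CPM in wild type PEP1 libraries, against 63.3, 3.87 and 9.14 CPM in wild type ethanol libraries.

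LOC_Os10g41980 had 198, 249 and 238 CPM under PEP1 in the RNAi line, against 19.8, 26.9 and 12.6 CPM under ethanol. Wild type PEP1 libraries had 283, 361 and 206 CPM and wild type ethanol libraries 29.8, 40.7 and 35.6 CPM. Here wild type PEP1 replicate 2 was the highest library of its group, not the lowest. LOC_Os01g22370 had the smallest wild type ratio of the 12, with ratios of 5.19 in the RNAi line and 4.21 in the wild type. Its ethanol level was 69.7 ± 11.95 CPM in the RNAi line and 75.1 ± 29.9 CPM in the wild type. LOC_Os05g05680, LOC_Os09g26960, LOC_Os05g10650, LOC_Os06g35520, LOC_Os08g08980 and LOC_Os01g40560 averaged between 119 and 303 CPM under PEP1 in either genotype. Their ratios ran from 4.64 (LOC_Os06g35520) to 69.7 (LOC_Os08g08980) in the RNAi line and from 5.19 (LOC_Os09g26960) to 12.8 (LOC_Os08g08980) in the wild type. The remaining locus of the 12, LOC_Os06g48810, is described with the comparison of genotypes.

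**Figure D2:**
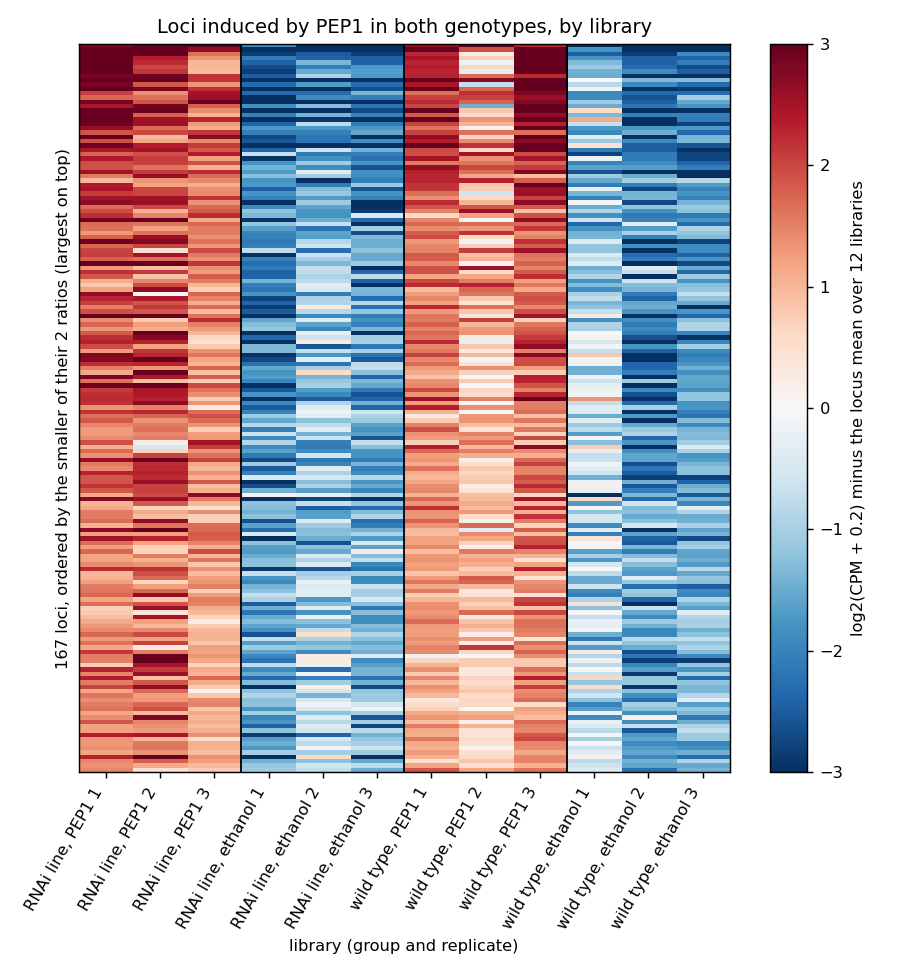
Level of each of the 167 loci (rows) in each of the 12 libraries (columns), as log2(CPM + 0.2) minus the mean of the locus over the libraries, with the scale ending at 3 and -3. Rows run from the largest to the smallest of the lower of their 2 ratios, and vertical lines separate the 4 groups. Wild type PEP1 replicate 2 is paler than its neighbours in much of the set, and wild type ethanol replicate 1 is less blue than replicates 2 and 3.

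The 8 loci with the largest lower ratio all averaged at most 2.16 CPM under ethanol in either genotype. LOC_Os05g48740 led them, with ratios of 56.5 in the RNAi line and 72.4 in the wild type. It had 27.1, 40.2 and 53.1 CPM under PEP1 in the RNAi line, against 0.960, 0.272 and 0.310 CPM under ethanol. Its wild type libraries had 23.0, 43.0 and 19.7 CPM under PEP1, against 0.235, 0.231 and 0.125 CPM under ethanol. Every PEP1 library was well above every ethanol library of either genotype, with wild type PEP1 replicate 2 the highest of its group. LOC_Os05g48730, the next member along the chromosome, had 5.37 ± 1.25 CPM under PEP1 and 0.291 ± 0.302 CPM under ethanol in the RNAi line. Its wild type means were 5.77 ± 1.43 CPM under PEP1 and 0.0385 ± 0.0667 CPM under ethanol, and it was named after its values were seen.

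LOC_Os04g51830 followed, with ratios of 84.8 in the RNAi line and 43.3 in the wild type. It averaged 50.6 ± 17.4 CPM under PEP1 and 0.399 ± 0.0893 CPM under ethanol in the RNAi line, and 39.3 ± 17.4 CPM under PEP1 and 0.712 ± 0.556 CPM under ethanol in the wild type. LOC_Os12g38040 reached ratios of 65.2 in the RNAi line and 37.9 in the wild type, but its PEP1 libraries were widely spread. They had 13.1, 24.7 and 4.30 CPM in the RNAi line and 6.70, 1.43 and 23.4 CPM in the wild type, while no ethanol library exceeded 0.188 CPM. LOC_Os09g19800 spread less, with 44.6 ± 11.4 CPM under PEP1 and 2.16 ± 1.23 CPM under ethanol in the RNAi line, and 30.0 ± 6.82 CPM under PEP1 and 0.988 ± 1.14 CPM under ethanol in the wild type. Under ethanol 66 loci averaged below 1 CPM in both genotypes, so ratios of this size lean on the 0.2 CPM added.

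At the other end, 3 loci lay just inside the ratio of 4. These were LOC_Os03g08530 (4.003 in the RNAi line), LOC_Os11g07440 (4.01 in the RNAi line) and LOC_Os04g56030 (4.02 in the wild type). Just outside lay LOC_Os10g36610 (3.96), LOC_Os06g10780 (3.96) and LOC_Os01g67030 (3.95), each by its wild type ratio.

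Only 88 pairs of locus and symbol were written by hand, so the share of defence genes in the set is not known. Of the members with a symbol, Cht3, CM-LOX1, KO4 and KOL5 were named after their values were seen. No other chitinase, lipoxygenase or kaurene oxidase locus was listed beside them, so they say nothing of their families. WRKY62 (LOC_Os09g25070) had 42.1, 30.4 and 36.7 CPM under PEP1 in the RNAi line, against 5.44, 1.96 and 9.30 CPM under ethanol. Wild type libraries had 30.6, 21.2 and 49.5 CPM under PEP1, against 12.6, 2.08 and 5.63 CPM under ethanol. Its wild type PEP1 replicate 2 and ethanol replicate 1 stood less than 2-fold apart, while the lowest RNAi PEP1 library was more than 3-fold above the highest RNAi ethanol library. In the list of 10 WRKY loci WRKY62 was the only one in the set, and WRKY76, its neighbour, met the thresholds but is left aside by the definition. Of the 10 WRKY loci, 8 were called higher under PEP1 in the RNAi line, against 8.68% of all features, and 2 in the wild type, against 2.54% (edgeR, adjusted p below 0.05). With DESeq2 these counts were 9 and 5.

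Cht3 (LOC_Os06g51050), a chitinase, had 16.8, 16.0 and 8.26 CPM under PEP1 in the RNAi line, against 0.587, 2.23 and 1.74 CPM under ethanol. Its wild type libraries had 10.5, 7.55 and 16.7 CPM under PEP1, against 2.53, 1.10 and 1.13 CPM under ethanol. In each genotype every PEP1 library was above 3 times the mean of the ethanol libraries. CM-LOX1 (LOC_Os08g39840), a plastid lipoxygenase, averaged 8.66 ± 2.95 CPM under PEP1 and 0.293 ± 0.158 CPM under ethanol in the RNAi line. Wild type libraries had 2.89, 1.497 and 8.22 CPM under PEP1, against 1.23, 0 and 0.376 CPM under ethanol. Wild type PEP1 replicate 2 and wild type ethanol replicate 1 thus nearly met. None of the 6 loci in the list of jasmonate synthesis, which holds enzymes that act after the lipoxygenase, was in the set. In that list 5 loci were called higher and 1 lower in the RNAi line, against 8.68% and 6.68% of all features. In the wild type 1 was called higher and 1 lower, against 2.54% and 2.66% of all features. Of the 9 loci in the hand-written phenylpropanoid list 1 was in the set, LOC_Os04g43800, whose written symbol was not borne out by its position and is not used. It was at 15.5 ± 5.26 CPM under PEP1 and 1.40 ± 0.237 CPM under ethanol in the RNAi line and at 12.4 ± 4.70 CPM under PEP1 and 2.68 ± 2.64 CPM under ethanol in the wild type. That list went both ways in the RNAi line, with 4 of the 9 loci called higher (8.68% of all features) and 4 lower (6.68%). In the wild type edgeR called 5 lower, against 2.66% of all features, and 0 higher, against 2.54%. There 1 was higher at an unadjusted p below 0.05 in edgeR, 1 by DESeq2 and 0 by limma-voom.

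Among the named diterpenoid genes, CPS4 and KO4 spread widely between RNAi libraries. CPS4 (LOC_Os04g09900) had 90.4, 232 and 47.4 CPM under PEP1 in the RNAi line, against 1.07, 27.2 and 1.86 CPM under ethanol. Its wild type libraries had 38.3, 27.3 and 50.8 CPM under PEP1, against 20.1, 4.79 and 3.51 CPM under ethanol. Replicate 2 was the highest RNAi library under either treatment, and wild type ethanol replicate 1 came close to the wild type PEP1 libraries. KO4 (LOC_Os06g37300) had 3.89, 40.1 and 3.02 CPM under PEP1 in the RNAi line, against 0.107, 1.52 and 0.186 CPM under ethanol. Wild type libraries had 2.05, 2.28 and 2.27 CPM under PEP1, against 1.06, 0 and 0 CPM under ethanol. RNAi PEP1 replicate 2 alone was far above the rest, and without it the RNAi ratio of KO4 was 4.54, against 19.7 with it.

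KOL5 (LOC_Os06g37224), the member next to KO4, did not share that spread. It had 16.5, 14.5 and 9.94 CPM under PEP1 in the RNAi line, against 0.160, 0.871 and 0.682 CPM under ethanol. Its wild type libraries had 6.65, 6.44 and 10.6 CPM under PEP1, against 3.76, 0.347 and 0.2504 CPM under ethanol. KO4 and KOL5 are related copies, and how reads that fit both were counted is not given in the sources used here. Of the 10 loci in the diterpenoid phytoalexin list, which does not hold KO4 and KOL5, 3 met the thresholds, and 2 of these are left aside by the definition. Of the 9 that could be tested, edgeR called 3 higher under PEP1 in the RNAi line, against 8.68% of all features. In that line 7 were higher at an unadjusted p below 0.05 in edgeR, 7 by DESeq2 and 5 by limma-voom. The median log2 change over the list was 3.52 there. Replicate 2 weighed heavily at some listed loci outside the set. CPS2 had 1.41, 285 and 2.52 CPM under PEP1 in the RNAi line, against 0, 71.2 and 0.062 CPM under ethanol. KSL7 had 5.82, 266 and 5.04 CPM under PEP1 there, against 0.373, 62.0 and 0.310 CPM under ethanol. The list was not read without that replicate. In the wild type the median log2 change was 1.80, and edgeR called 0, where 2 were higher at an unadjusted p below 0.05, 2 by DESeq2 and 0 by limma-voom.

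At 13 loci the CPM of RNAi PEP1 replicate 2 was at least 2-fold above the next library of its group, KO4 (10.3-fold) and CPS4 (2.57-fold) among them. RNAi ethanol replicate 2 was the highest of its own group at all 13. Without RNAi PEP1 replicate 2, 9 of the 13 still had an RNAi ratio of at least 4, and the median ratio of the 13 was 4.52, against 7.78 with it. That library also had the highest sum of shoot markers (691 CPM, against 88.4 and 58.7 CPM in the other RNAi PEP1 libraries, with no marker at 0 in any library), and their part in the result was not tested. The hand-written lists of JAZ repressors, pathogenesis-related proteins, elicitor receptors and MAP kinases, respiratory burst oxidases, nitrogen transport, iron storage, ethylene synthesis and antioxidant enzymes had no locus in the set. Among them, edgeR called 4 of the 6 JAZ loci and 3 of the 5 receptor and kinase loci higher under PEP1 than under ethanol in the RNAi line, where 8.68% of all features were called higher. It called 0 of either list in the wild type, as did DESeq2 and limma-voom, and an unadjusted p below 0.05 in edgeR was found for 1 JAZ locus and 2 receptor and kinase loci. The 5 tested loci of the pathogenesis-related list had a median log2 change of 2.81 in the RNAi line and 1.52 in the wild type. Of these edgeR called 0 in either genotype. In the RNAi line DESeq2 and limma-voom each called 4 higher, and in the wild type each called 0. Of the 4 iron storage loci, 2 were called higher in the RNAi line and 2 in the wild type, where 2.54% of all features were. Of the 4 respiratory burst oxidases edgeR called 0 in either genotype. Of the 6 nitrogen transport loci, 1 was called higher in the RNAi line and 0 in the wild type. Of the 5 tested ethylene synthesis loci, 1 was higher and 1 lower in the RNAi line, and 2 were lower in the wild type. Of the 5 antioxidant enzymes, 2 were called higher in the RNAi line and 1 in the wild type. Of the 7 aquaporins and silicon transporters, 2 met the thresholds, and both are left aside by the definition. With the loci left aside included, that list had 4 loci called higher and 1 lower in the RNAi line. There 8.68% of all features were called higher and 6.68% lower. In the wild type it had 5 higher and 1 lower, against 2.54% and 2.66% of all features.

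Most loci shared an ordering of the replicates that the definition did not ask for. RNAi PEP1 replicate 3 was the lowest of its group at 112 loci (67.1%, against 26.1% of 22220 other genes), and RNAi ethanol replicate 2 was the highest of its group at 105 (62.9%, against 37.3%). Wild type PEP1 replicate 2 was the lowest of its group at 119 loci (71.3%, against 29.1%), and wild type ethanol replicate 1 was the highest of its group at 121 (72.5%, against 31.0%). The summed level of the set was 8802, 8750 and 5754 CPM in the RNAi PEP1 libraries and 533, 909 and 621 CPM in the RNAi ethanol libraries. Wild type sums were 7636, 4804 and 9203 CPM under PEP1 and 1481, 505 and 687 CPM under ethanol. In each genotype the lowest PEP1 library thus stayed more than 3-fold above the highest ethanol library in sum. Loci of 1 library share its RNA and are not replicates of each other.

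**Figure D3:**
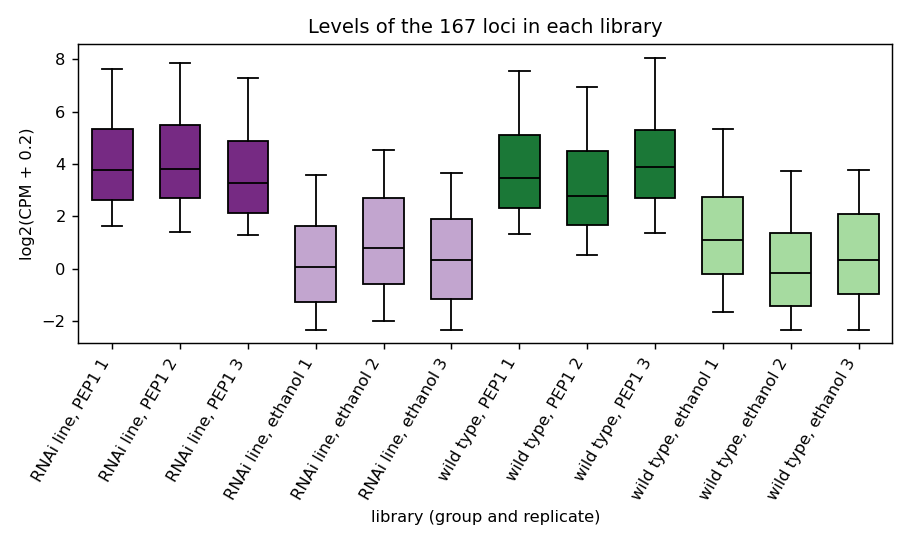
Levels of the 167 loci in each library, as log2(CPM + 0.2), by group and replicate. Boxes show the quartiles and the median, and whiskers run from the 5th to the 95th percentile of the loci. The medians of all PEP1 libraries lie above those of all ethanol libraries. Wild type PEP1 replicate 2 has the lowest median under PEP1 and wild type ethanol replicate 1 the highest under ethanol, and their boxes overlap.

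Some loci were free of the wild type part of this ordering. Neither wild type PEP1 replicate 2 was lowest nor wild type ethanol replicate 1 highest at 30 loci, whereas both held at 103. The SD was at most 0.25 of the mean in both PEP1 groups at 22 loci. The matching counts over other genes were not computed. The steadiest of the set was LOC_Os04g06520, whose SD was at most 0.149 of the mean in any group. It had 91.0, 67.4 and 82.7 CPM under PEP1 in the RNAi line, against 11.6, 9.69 and 12.6 CPM under ethanol. Wild type libraries had 79.7, 76.8 and 65.2 CPM under PEP1, against 13.5, 13.2 and 16.6 CPM under ethanol. Its ratios were 7.01 in the RNAi line and 5.06 in the wild type. This locus and the neighbour of LOC_Os05g05680, LOC_Os05g05670 (138 ± 7.40 CPM under PEP1 and 12.3 ± 3.76 CPM under ethanol in the RNAi line), were named after their values were seen.

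To ask how far the choice carries from 1 genotype to the other, the conditions were applied to 1 genotype alone. The loci found were then read in the contrast of PEP1 and ethanol in the other. All 12 libraries entered that fit, so its estimate of the spread also drew on the libraries that chose the loci. In the wild type libraries 224 LOC_Os rows met the conditions, and in the RNAi libraries 849 did. The 172 loci that met both made up 20.3% of the RNAi set and 76.8% of the wild type set. Of the 224 loci chosen in the wild type, 193 (86.2%) were called higher under PEP1 in the RNAi line (edgeR, adjusted p below 0.05), against 8.68% of all features. Their median log2 change there was 3.03, and 223 of the 224 were above 0. That count was 128 without RNAi ethanol replicate 1 and 122 without RNAi ethanol replicate 3, where 3.46% and 2.85% of all features were called higher. Of the 849 loci chosen in the RNAi line, 164 (19.3%) were called higher in the wild type, against 2.54% of all features. Their median log2 change there was 1.59, and 811 were above 0. With only the compared groups in the fit, 191 of the 224 and 85 of the 849 were called higher. In those fits 11.9% and 1.03% of all features were called higher.

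In the fit of all groups, the count of loci chosen in the RNAi line and called in the wild type depended on single wild type libraries. It was 424 without wild type ethanol replicate 1, where 5.48% of all features were called higher. It was 95 and 89 without wild type ethanol replicates 2 and 3 (1.62% and 1.34% of all features), and 85 and 86 without wild type PEP1 replicates 1 and 3 (1.15% and 1.21%). Among the 677 loci that met the conditions in the RNAi line only, the wild type ratio was under 4 at 604, the wild type libraries overlapped at 492 and the wild type PEP1 mean was under 2 CPM at 90. Their wild type ratio was above 1 at 641 loci, with a median of 2.45, against 53.9% of the LOC_Os rows with a mean of at least 1 CPM. Of the 52 loci that met the conditions in the wild type only, 46 had an RNAi ratio under 4, and their median RNAi ratio was 2.93. That ratio was above 1 at 51 of the 52, against 47.4% of the LOC_Os rows with a mean of at least 1 CPM.

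Without wild type ethanol replicate 1 the conditions in both genotypes were met by 504 loci, of which 162 belong to the 167. Without wild type PEP1 replicate 2 the conditions were met by 313 loci.

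Under ethanol, 3 of the 167 loci were called different between the RNAi line and the wild type (edgeR, adjusted p below 0.05), 1 higher and 2 lower, a share of 1.80% against 3.79% of all features (2.16% higher and 1.63% lower). An unadjusted p below 0.05 was found for 28, but the share of all features at that cut was not computed, so nothing is read from this count. DESeq2 called 12, 3 higher and 9 lower, against 6.64% of all features. In edgeR the count was 4, with 3 higher and 1 lower, without wild type ethanol replicate 1, against 3.32% of all features. It was 7 without wild type ethanol replicate 2, against 4% of all features. It was 1 without wild type PEP1 replicate 1, RNAi PEP1 replicate 1 or RNAi PEP1 replicate 3, against 3.14%, 3.11% and 3.47%. The median log2 difference (RNAi line over wild type) was -0.17, with 62 loci above 0 and 104 below, against -0.021 over all features tested. The definition did not use this contrast, but it bounds the ethanol level of every locus by its PEP1 level.

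LOC_Os06g48810 stood out. Under ethanol it had 0.480, 1.20 and 0.372 CPM in the RNAi line, against 31.0, 12.5 and 12.6 CPM in the wild type. The lowest wild type library was thus far above the highest RNAi library. Its log2 difference was -4.78 with an SE of 0.63 (edgeR adjusted p = 0.00111), and it passed in all 20 alternative fits, with adjusted p up to 0.0331. Under PEP1 it had 245, 274 and 141 CPM in the RNAi line, against 454, 215 and 394 CPM in the wild type, and these groups overlapped (log2 difference -0.64 ± 0.48, edgeR adjusted p = 0.859). The ratio of PEP1 to ethanol at this locus was 249 in the RNAi line and 18.7 in the wild type. The interaction, how far the log2 changes under PEP1 differ between genotypes, was 4.14 ± 0.78 here, with an edgeR adjusted p of 0.2498.

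The other 2 calls were less firm. LOC_Os06g10870 had 1 count in the 3 RNAi ethanol libraries together, against 24 counts in the wild type ethanol libraries, a ratio of 0.0394 with an exact 95% interval from 0.000957 to 0.241 that covers counting error only. Its fitted log2 difference of -4.27 ± 1.01 (edgeR adjusted p = 0.0408) depends on so few counts, and the call was lost in 11 of 19 alternatives, with adjusted p up to 0.246. Single libraries ended it, namely wild type PEP1 replicate 1, wild type ethanol replicates 1 and 3, RNAi PEP1 replicates 1 and 3 and each RNAi ethanol replicate. Under PEP1 the locus had 14.6, 7.35 and 17.95 CPM in the RNAi line, against 9.44, 6.70 and 13.8 CPM in the wild type, and these groups overlapped. LOC_Os02g02780 had 8.32, 21.1 and 7.69 CPM under ethanol in the RNAi line, against 4.29, 1.62 and 2.75 CPM in the wild type. It was higher in the RNAi line by 2.09 ± 0.50 on the log2 scale (edgeR adjusted p = 0.0461), without overlap, and the call was lost in 11 of 20 alternatives, with adjusted p up to 0.186. The libraries whose loss ended it were wild type PEP1 replicate 1, wild type ethanol replicates 2 and 3, each RNAi PEP1 replicate and RNAi ethanol replicate 2. Under PEP1 it averaged 135 ± 20.8 CPM in the RNAi line and 139 ± 52.1 CPM in the wild type.

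Under PEP1 none of the 167 loci was called different between the genotypes by edgeR, where 2.65% of all features were. The definition asks for at least 2 CPM under PEP1 in both genotypes, which the other features need not reach. The choice of loci thus bears on this comparison, and no agreement of the genotypes is read from it. DESeq2 called 3, against 4.08% of all features, and limma-voom 1, against 2.78%. At an unadjusted p below 0.05 in edgeR there were 13, with no share of all features computed at that cut. Without RNAi PEP1 replicate 3 edgeR called 1, against 2.09% of all features. The median log2 difference (RNAi line over wild type) was 0.28, with 118 loci above 0 and 49 below, against 0.0033 over all features. For the interaction, which is built from the contrasts that chose the loci, edgeR called none of the 167 and 0.00391% of all features. An unadjusted p below 0.05 was found for 12, DESeq2 called 1 and limma-voom 0, and nothing is read from these counts.

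**Figure D4:**
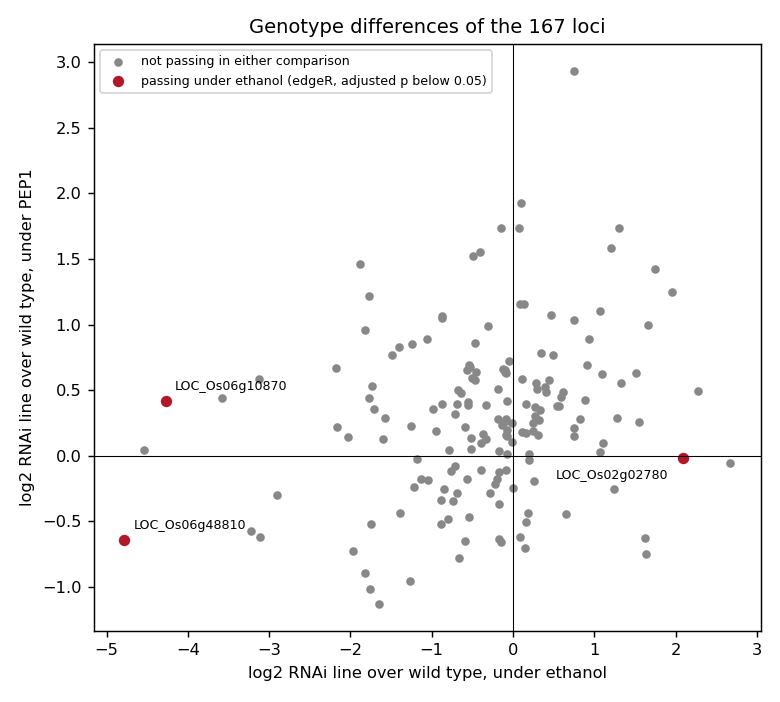
Log2 difference between the RNAi line and the wild type under PEP1 (vertical) against the same under ethanol (horizontal), 1 point per locus, 167 loci. Red points passed edgeR's test under ethanol, and none passed under PEP1. LOC_Os06g48810 and LOC_Os06g10870 lie on the left at -4.78 and -4.27 under ethanol, near a grey point that did not pass, and LOC_Os02g02780 on the right at 2.09.

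Members often lay next to each other along the chromosomes. Of the 334 places next to a member, counting along the 22387 rows with a mean of at least 1 CPM and the members themselves, 30 (8.98%) were taken by another member, while members made up 0.746% of these rows. In 14 runs, members followed each other within 100 locus numbers, and these runs held 31 loci. Most runs were pairs, such as KOL5 with KO4 on chromosome 6, LOC_Os05g05670 with LOC_Os05g05680 and LOC_Os05g48730 with LOC_Os05g48740 on chromosome 5, and LOC_Os10g39260 with LOC_Os10g39300 on chromosome 10. How reads that fit more than 1 neighbour were counted is not given in the sources used here, so the counts of similar neighbours are uncertain. Chromosome 8 had the highest share of members, at 1.15% of its rows (17 loci), and chromosome 2 the lowest, at 0.496% (13 loci).

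On chromosome 2, 3 members lay together. LOC_Os02g12380 was at 34.5 ± 5.11 CPM under PEP1 and 7.28 ± 0.184 CPM under ethanol in the RNAi line, and at 30.9 ± 8.20 CPM under PEP1 and 7.47 ± 3.87 CPM under ethanol in the wild type. LOC_Os02g12350 and LOC_Os02g12250 had ratios of 6.24 and 12.6 in the RNAi line and of 6.58 and 7.95 in the wild type. LOC_Os02g12250 averaged 0.0595 CPM under ethanol in the RNAi line and 0.0809 CPM in the wild type, below the level of 3 counts in a library.

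A longer stretch with several members lay on chromosome 8, from LOC_Os08g25839 to LOC_Os08g26520. The table lists 65 loci there, of which 8 were members, 36 had no count in any library and 21 had counts without being members. The summed level of the 8 members was 63.2, 37.0 and 18.1 CPM under PEP1 in the RNAi line, against 0.160, 1.14 and 0.558 CPM under ethanol. Wild type sums were 38.2, 6.70 and 89.5 CPM under PEP1, against 1.76, 0.462 and 0.2504 CPM under ethanol. Wild type PEP1 replicate 3 was the highest of its group at all 8, wild type PEP1 replicate 2 the lowest at all 8, and RNAi PEP1 replicate 3 the lowest at all 8. Much of the whole set shared this order, with 61.1%, 71.3% and 67.1% of its loci in the same 3 places.

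LOC_Os08g25860 had the most counts of the members in this stretch. It had 16.5, 7.75 and 3.31 CPM under PEP1 in the RNAi line, against 0.0533, 0.436 and 0.372 CPM under ethanol. Its wild type libraries had 8.66, 1.30 and 19.9 CPM under PEP1, against 0.470, 0.289 and 0.125 CPM under ethanol. No ethanol library of LOC_Os08g25860 exceeded 0.470 CPM. LOC_Os08g26350, LOC_Os08g26360 and LOC_Os08g26520 had ratios between 20.4 and 29.8 in both genotypes, while LOC_Os08g25839, LOC_Os08g25850 and LOC_Os08g26320 had ratios between 9.41 and 18.6. LOC_Os08g25990 had no count in any ethanol library of either genotype and averaged 2.34 ± 1.35 CPM under PEP1 in the RNAi line and 2.78 ± 2.83 CPM in the wild type. LOC_Os08g26010, which lies within the stretch, also had no count under ethanol, and it missed the set because its RNAi PEP1 mean was 1.88 CPM. LOC_Os08g26050, within the stretch as well, missed it because its wild type libraries overlapped. LOC_Os08g25990, LOC_Os08g26010 and LOC_Os08g26050 were named after their values were seen, as were LOC_Os10g39260 and LOC_Os10g39300.

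**Figure D5:**
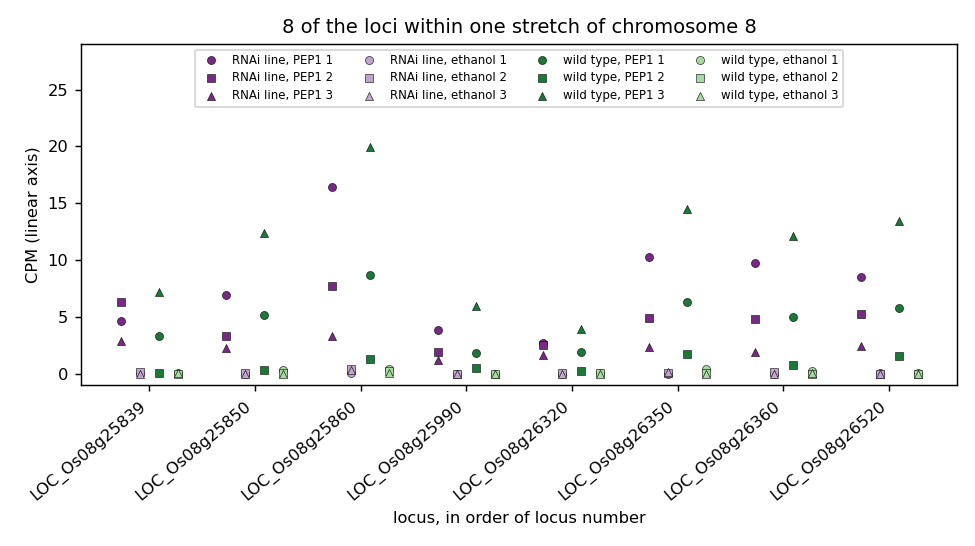
CPM (linear axis) of the 8 members between LOC_Os08g25839 and LOC_Os08g26520 on chromosome 8, in order of locus number. Colour marks the group and shape the replicate. The ethanol libraries lie near 0 at every locus, and the PEP1 libraries keep nearly the same order from locus to locus, with wild type PEP1 replicate 3 on top and wild type PEP1 replicate 2 at the bottom.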

How the data were processed

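Deposited by the authors was a single table with raw counts of reads, covering 57265 features in 12 libraries. Its columns were matched to samples by title. The aligner, build, annotation, counting tool and strand setting were not given in the sources used here. CPM values were computed from the counts, scaled by each library's total over all features. The members, the gene lists and the alternatives were chosen with earlier results of these data known.

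All 12 libraries entered 1 fit with 4 groups in edgeR 4.0.16 (R 4.3.3), scaled by TMM and filtered with filterByExpr at its defaults (25602 features kept, common biological coefficient of variation 0.313), using the quasi-likelihood test with Benjamini-Hochberg adjustment and a threshold of 0.05. SE is the size of a log2 change over the root of its F value. limma 3.58.1 (voom) and DESeq2 1.42.0 gave alternatives, and the edgeR script was tested on simulated data. Other steps used Python 3.11.15.

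The rule for named genes took the 12 loci with the most counts under PEP1, the 8 with the largest lower ratio, 3 just inside and 3 just outside the ratio threshold, up to 6 passing loci per genotype comparison, runs of 3 or more neighbours, and listed loci. Of 88 hand-written pairs of locus and symbol, 4 (Cht3, KO4, KOL5, CM-LOX1) were added after values were seen. None of the table's IDs occurs in NCBI RefSeq's gene table (ASM3414082v1), so a symbol was used only where that table lists it on the same chromosome, and where the gap between its relative position and that of the locus number was within 0.03 of the median gap of the chromosome's other pairs. This held for 54 pairs and cannot tell neighbouring copies apart. Counts over a list include its loci without a used symbol.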

Additional observations from a re-analysis of the deposited data

Results flagged for a closer look

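Outside the LOC_Os rows, 7 features met the same thresholds in both genotypes. Novel00937 took the most counts of the 7, with 43.9, 60.4 and 32.3 CPM under PEP1 in the RNAi line, against 3.36, 7.08 and 3.22 CPM under ethanol, and 34.9, 20.6 and 40.03 CPM under PEP1 in the wild type, against 7.64, 4.79 and 7.39 CPM under ethanol. Novel00457 had no count in any ethanol library and averaged 2.96 ± 1.08 CPM under PEP1 in the RNAi line and 2.65 ± 1.85 CPM in the wild type (SD, n = 3 each). These features carry no annotation in the sources used here, and they were noticed because the definition of the set covers LOC_Os rows only.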

How the results depend on the processing

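The set held 167 loci as defined. It held 88 with 1 CPM added in place of 0.2, 271 at a ratio of 3, 76 at a ratio of 6, 546 without wild type ethanol replicate 1, RNAi ethanol replicate 2 and RNAi PEP1 replicate 2 (158 shared with the 167), and 576 without wild type PEP1 replicate 2 and wild type ethanol replicate 1 (159 shared), an alternative chosen after seeing the data. With single libraries left out it ranged from 133 to 504. Other scalings of the library gave 154 to 165, a pseudocount of 0.05 CPM 182, levels of 1 and 5 CPM 189 and 117, and overlap allowed 234. The 3 loci called between genotypes under ethanol became 12 with DESeq2, 1 with limma-voom, 1 with only the compared groups in the fit, and 1 to 7 with single libraries left out. Under PEP1 the 0 loci became 3, 1 and 1 under the same settings, and 0 to 1 with single libraries left out. For the loci chosen in the wild type and read in the RNAi line (193) it was 122 to 204 with single libraries left out, 214 with DESeq2 and 205 without the 2 wild type libraries. For the loci chosen in the RNAi line and read in the wild type (164), DESeq2 gave 290, the compared groups alone 85, the fit without the 3 libraries 446, the fit without the 2 wild type libraries 584, and single libraries left out 85 to 424. The interaction gave 1 locus with DESeq2 and 0 to 0 with single libraries left out. LOC_Os06g10870 could not be fitted with only the compared groups, where it fell under the filter. The causes of these shifts were not tested.

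The replicate block gave 3 loci under ethanol, 0 under PEP1, 184 for the loci chosen in the wild type, 146 for those chosen in the RNAi line and 0 for the interaction. Under it LOC_Os02g02780 had an adjusted p of 0.1003, so that its call was lost. Correlations of deviations between same-numbered libraries ran from -0.511 to 0.626. The highest was between RNAi PEP1 replicate 2 and RNAi ethanol replicate 2. With so few libraries a group, these values cannot decide whether the numbers pair the samples.

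With 3 libraries a group and 3 counts worth up to 0.195 CPM, ethanol levels of the loci near 0 are poorly known, and with them their ratios.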
